A study of Mus musculus with 40 samples.

Results

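The H3K27me3 core is the set of autosomal regions that carried an H3K27me3 peak in every K27M oligodendrocyte progenitor cell (OPC) culture of the series. Its members were chosen by the H3K27me3 peak lists themselves: a base belonged to the core when a broad peak covered it in all 5 K27M libraries, and contiguous stretches of at least 200 bp that also overlapped a peak of at least 1 Control library were kept. This gave 2922 fragments spanning 10.5 Mb, out of 156 Mb in 79131 stretches that lay under an H3K27me3 peak of any library. Presence in K27M and in Control H3K27me3 lists is therefore the definition of the core and not a result.

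The series profiled H3K27me3 and H3K4me3 by ChIP-seq in cultured mouse OPCs, with 10 libraries per mark, 5 from K27M and 5 from Control. Brains of AMGFAP-Cre;K27M litters were taken at postnatal day 5 to 7, and brainstem and dorsal telencephalon, which the labels call cortex, were each pooled by genotype, so a culture stands for pooled animals. OPCs were purified on anti-PDGFRa plates after endothelial cells and microglia had been removed on BSL1 plates, and all cultures were kept in proliferation medium. K27M cultures carry a conditional knock-in of the K27M substitution at *H3-3a*, switched on by a human GFAP promoter-driven Cre that acts in neural stem and progenitor cells, and Control cultures came from littermates. Brainstem cultures 59 and 61 and cortex cultures 59, 60 and 61 each had a matched K27M and Control library, which gave 5 pairs. No OPC was taken through differentiation in these libraries.

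H3K27me3 is deposited by Polycomb repressive complex 2 (PRC2) and marks genes that are held silent, above all regulators of development that belong to other lineages. PRC2 is recruited to CpG islands, from which the mark spreads into the surrounding chromatin, and histone H3 with the K27M substitution inhibits the enzyme. Promoters that carry H3K4me3, the mark of active or poised promoters, together with H3K27me3 are called bivalent when both marks sit on the same chromatin, which ChIP-seq of each mark alone cannot tell from a mixture of cells.

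To show what core chromatin looks like, 300 bp from the middle of 3 core fragments and 1 comparison fragment are printed with each CpG in capitals, from the RefSeq sequence of GRCm38, the assembly that mm10 names. The longest core fragment covers the *HoxC* cluster, and its middle at chr15:102983518-102983817, in an intron of *Hoxc9*, held 2 CpGs. The core fragment of at least 1000 bp with the highest CpG density lies at *Fignl2*, and its window at chr15:101053461-101053760, in coding sequence, held 55 CpGs. The core fragment of at least 1000 bp with the lowest CpG density, at chr1:80852191-80852490, held none in its window and lay 93232 bp from the nearest protein-coding start, that of *Dock10*. The comparison fragment, at chr1:98191961-98192260, carried H3K27me3 in at least 2 Control and no K27M libraries, was close to the median CpG density of its kind and held 4 CpGs.
HoxC, core: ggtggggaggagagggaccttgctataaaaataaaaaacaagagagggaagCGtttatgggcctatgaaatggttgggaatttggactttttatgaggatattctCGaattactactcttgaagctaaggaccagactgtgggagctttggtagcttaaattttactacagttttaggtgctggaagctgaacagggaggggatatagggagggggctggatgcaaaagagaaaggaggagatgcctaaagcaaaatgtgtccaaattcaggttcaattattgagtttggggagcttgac
Fignl2, core: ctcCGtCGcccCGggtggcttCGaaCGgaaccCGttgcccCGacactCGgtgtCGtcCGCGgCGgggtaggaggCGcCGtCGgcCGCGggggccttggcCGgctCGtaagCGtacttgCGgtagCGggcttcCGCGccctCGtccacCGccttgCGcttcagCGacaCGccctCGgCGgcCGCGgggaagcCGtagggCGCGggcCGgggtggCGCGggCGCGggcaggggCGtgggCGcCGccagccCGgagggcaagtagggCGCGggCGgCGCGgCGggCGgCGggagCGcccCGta
CpG-poor, core: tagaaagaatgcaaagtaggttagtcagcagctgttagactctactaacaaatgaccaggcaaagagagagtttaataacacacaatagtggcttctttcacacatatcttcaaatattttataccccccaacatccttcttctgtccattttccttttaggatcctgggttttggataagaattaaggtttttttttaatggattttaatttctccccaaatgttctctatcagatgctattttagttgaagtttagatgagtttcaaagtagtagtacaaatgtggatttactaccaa
Control-only: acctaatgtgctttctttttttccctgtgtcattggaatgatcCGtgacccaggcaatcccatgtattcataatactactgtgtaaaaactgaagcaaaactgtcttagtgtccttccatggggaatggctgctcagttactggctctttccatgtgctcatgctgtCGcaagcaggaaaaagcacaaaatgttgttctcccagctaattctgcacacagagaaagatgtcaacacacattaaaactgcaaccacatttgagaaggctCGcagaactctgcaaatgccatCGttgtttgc
The printed core windows span from none to 55 CpGs in the same length. The *Fignl2* and CpG-poor fragments were chosen as the extremes of CpG density, so this span does not describe the typical member.

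Core fragments were mostly short, with a few very long domains that held much of the sequence. Their median length was 1614.5 bp (quartiles 698 and 3548 bp) and the longest spanned 178066 bp. Fragments of at least 10000 bp made up 7.60% of the members (222 of 2922) and 45.8% of core bases. Just inside the length threshold lay members of 201 and 202 bp, and just outside lay stretches of 199 and 198 bp. In all, 121 stretches shared by the 5 K27M libraries were too short. The single stretch that was long enough but met no Control peak was 399 bp at chr5:28212712-28213110, 2349 bp from the nearest start, that of *Cnpy1*. Of the 2922 members, 2703 (92.5%) overlapped a peak of all 5 Controls, 186 of 4, 29 of 3, 2 of 2 and 2 of 1. The members were scattered: the median gap between neighbours on a chromosome was 65465 bp, and 1228 of them had no other member within 10 kb. Core sequence was densest on chromosome 11 with 7.23 kb per Mb and sparsest on chromosome 16 with 1.32 kb per Mb.

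The size of the core was set largely by 1 library. Of the 4.14 Mb covered in exactly 4 of the 5 K27M libraries, 80.6% was missing only from the cortex 59 K27M library, which had the fewest peaks, and without culture 59 of the cortex the core spanned 13.9 Mb in place of 10.5 Mb. The H3K27me3 libraries of the other cultures listed 6427 to 7770 autosomal peaks in K27M and 25366 to 53757 in Control, against 3941 and 12526 in cortex 59. For each pair, fold enrichment over input is relative to that library's own input and background, and the spike-in did not enter it, so it ranks regions within a library and does not measure the amount of H3K27me3.

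Core sequence made up a large part of each K27M peak list and a small part of each Control list. In K27M, the core was 49.8% and 45.7% of all H3K27me3-covered bases in brainstem 59 and 61, and 84.6%, 45.9% and 54.6% in cortex 59, 60 and 61 (mean 56.1% ± 16.3, SD, n = 5). In Control, it was 10.0%, 21.2%, 38%, 14.7% and 9.77% in the same order (18.8% ± 11.7, SD, n = 5). Every K27M library lay above every Control library, as the rule makes likely, and cortex 59 was highest within both genotypes. Control peaks covered 96.1%, 98.2%, 94.5%, 99.7% and 98.1% of core bases, so the core was almost entirely marked in Control OPCs as well. Of the 1000 peaks with the highest fold enrichment in each library, 96.3% to 99% touched the core in K27M and 72.2% to 93% in Control. Of all peaks, 28.7% to 70.6% touched it in K27M, whose peaks define the core, and 3.99% to 19.8% in Control. The strongest H3K27me3 peaks of Control OPCs thus also lay mostly on the core.

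**Figure D1:**
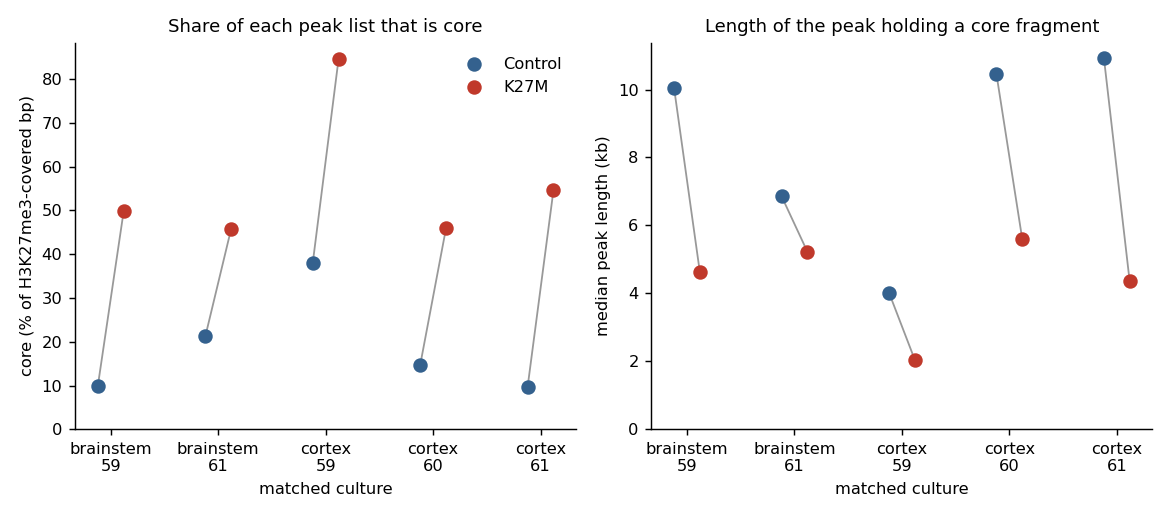
Left, share of H3K27me3-covered bases that are core in each library (%); right, median length of the merged peak that holds a core fragment (kb). Points are single libraries, with K27M in red and Control in blue, and grey lines join matched cultures. The share was at most 38% in Control and at least 45.7% in K27M, and the holding peak was shorter in K27M in every pair.

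To ask how stable the core is in a library that did not choose it, it was rebuilt 5 times without 1 matched pair and measured in that pair. The rebuilt cores share most of their members and are not independent. The held-out K27M library covered 95.9% and 99.1% of the rebuilt core in brainstem 59 and 61, and 76.1%, 99.7% and 98.0% in cortex 59, 60 and 61 (93.8% ± 9.98, SD, n = 5). Of the remaining H3K27me3, marked in at least 2 of the 4 other Controls, the same libraries covered 16.6%, 15.4%, 2.45%, 17.5% and 15.5% (13.5% ± 6.24, SD, n = 5). Held-out coverage of the core exceeded that of the remainder by 80.3 percentage points ± 4.04 (SD, n = 5), in 5 of 5 cultures (two-sided exact sign-flip permutation test, p = 0.0625). This is the smallest p that 5 pairs can give, so no paired comparison here can pass 0.05. Core and remainder were split by the peaks of the 4 other K27M libraries. The difference and its p-value therefore show only that K27M libraries resemble each other. The held-out Control libraries covered 95.7%, 98.2%, 84.4%, 99.7% and 97.9% of the rebuilt core, and 77.5%, 39.0%, 18%, 65.1% and 81.9% of the remainder.

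Peaks over the core were narrower in K27M. In the held-out pairs, the merged peak holding a rebuilt core fragment had a median length of 4654 and 5227 bp in K27M brainstem 59 and 61, and of 2335, 5587.5 and 4337 bp in K27M cortex 59, 60 and 61. The matched Control medians were 9820, 6797, 3886, 10408 and 10868.5 bp. Each K27M value was below its own Control, although the shortest Control median, that of cortex 59, lay below 4 of the 5 K27M medians. The mean log2 ratio of the lengths, K27M over Control, was −0.86 ± 0.36 (SD, n = 5), lower in 5 of 5 pairs (exact sign-flip permutation test, p = 0.0625). The length of a called peak moves with the background of its library, and the part of background in this difference was not tested.

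The height of the signal over the core depended on the length of the fragment. The median fold enrichment of the strongest peak on a core fragment was 5.32 and 6.41 in K27M brainstem, 2.79, 5.78 and 5.81 in K27M cortex, 5.21 and 4.82 in Control brainstem, and 2.89, 7.09 and 5.39 in Control cortex, in culture order. These medians overlapped between genotypes. The 90th percentile was 17.7 and 21.9 in K27M brainstem and 5.95, 17.6 and 19.8 in K27M cortex, against 8.02, 7.44, 4.59, 13.2 and 8.29 in Control, so each K27M library exceeded its matched Control at the upper end. On held-out pairs the mean log2 ratio over all rebuilt fragments was 0.24 ± 0.28 (SD, n = 5), higher in 4 of 5 pairs (exact sign-flip permutation test, p = 0.188). The value depended on how strictly peaks were taken. With −log10 q of at least 3 it was 0.40 ± 0.29 (SD, n = 5), higher in 4 of 5 pairs. With a fold enrichment of at least 3 it was 0.58 ± 0.33 (SD, n = 5), higher in 5 of 5 pairs. These thresholds also chose the members, which had to pass in all other K27M libraries but in only 1 other Control. The rule itself can raise the ratio in this way, and its part was not tested.

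Long members carried the highest ratios. In the longest quartile of fragments (3548 bp or more), the median log2 ratio of fold enrichment, K27M over Control, was 0.89 and 1.15 in brainstem 59 and 61 and 0.54, 0.30 and 0.98 in cortex 59, 60 and 61. In the shortest quartile (201 to 698 bp) it was −0.15, 0.19, −0.15, −0.39 and −0.08. The ratio climbed from each quartile to the next in all 5 pairs. Of the 726 longest-quartile members with a peak in all 10 libraries, 451 (62.1%) were higher in K27M in 5 of 5 pairs and 3 were lower in 5 of 5. Of the 604 such members of the shortest quartile, 13 (2.15%) were higher and 86 (14.2%) lower in every pair. Because the same peaks defined the members and their lengths, these values are a description without a test.

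**Figure D2:**
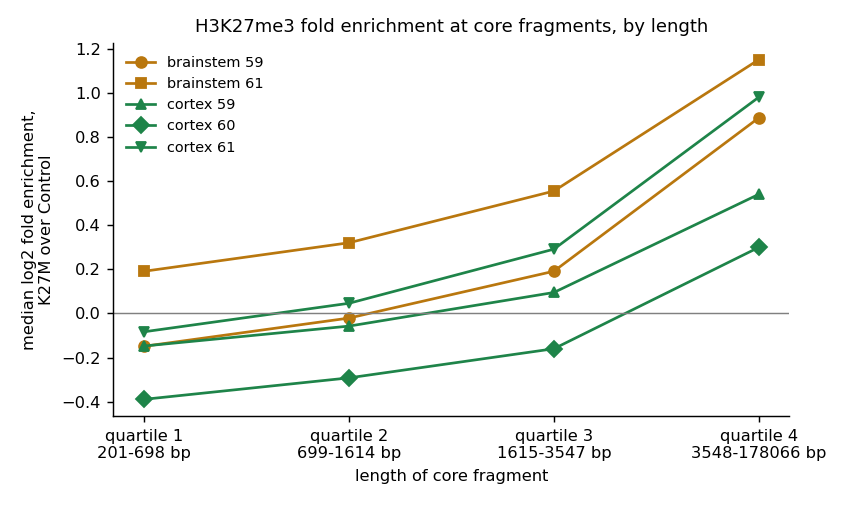
Median log2 ratio of H3K27me3 fold enrichment, K27M over Control, for core fragments in 4 quartiles of fragment length (bp); each line is 1 matched culture, orange for brainstem and green for cortex. All 5 lines rise from quartile 1 to quartile 4, where they end between 0.30 and 1.15.

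The longest members were dominated by the *Hox* clusters, whose genes set position along the body axis. The longest fragment, at chr15:102894635-103072700, covered the *HoxC* cluster with 9 gene starts, from *Hoxc13* to *Hoxc4*. Its strongest peak had a fold enrichment of 24.3 and 28.2 in K27M brainstem 59 and 61, 10.7, 26.5 and 29.5 in K27M cortex 59, 60 and 61, and 10.1, 9.78, 5.75, 17.2 and 11.9 in the matched Controls. Every K27M library was above its Control, and the cortex 59 pair was the weakest on both sides. The following members by length were *HoxB* from *Hoxb9* to *Hoxb3* (86753 bp), *HoxA* from *Hoxa5* to *Hoxa13* (83167 bp, which includes the read-through gene model *Gm28308*) and *HoxD* with *Evx2* (75471 bp). *Hoxb13* lay in a fragment of its own of 44045 bp. Past the *Hox* clusters came *Hand2*, a regulator of heart and limb development (51296 bp), *Barhl2*, a neuronal homeobox gene (45854 bp), *Tfap2a*, a neural crest regulator (45445 bp), *Gata4*, a heart and endoderm regulator (44843 bp), and the imprinted *Zdbf2* (42238 bp). In all 10 of these fragments fold enrichment was higher in K27M in 5 of 5 pairs. Among all members with a peak in all 10 libraries this was so of 642 of 2703 (23.8%), and in the longest quartile of 451 of 726 (62.1%). The K27M peaks also set the members and their lengths, so these counts are descriptions.

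**Figure D3:**
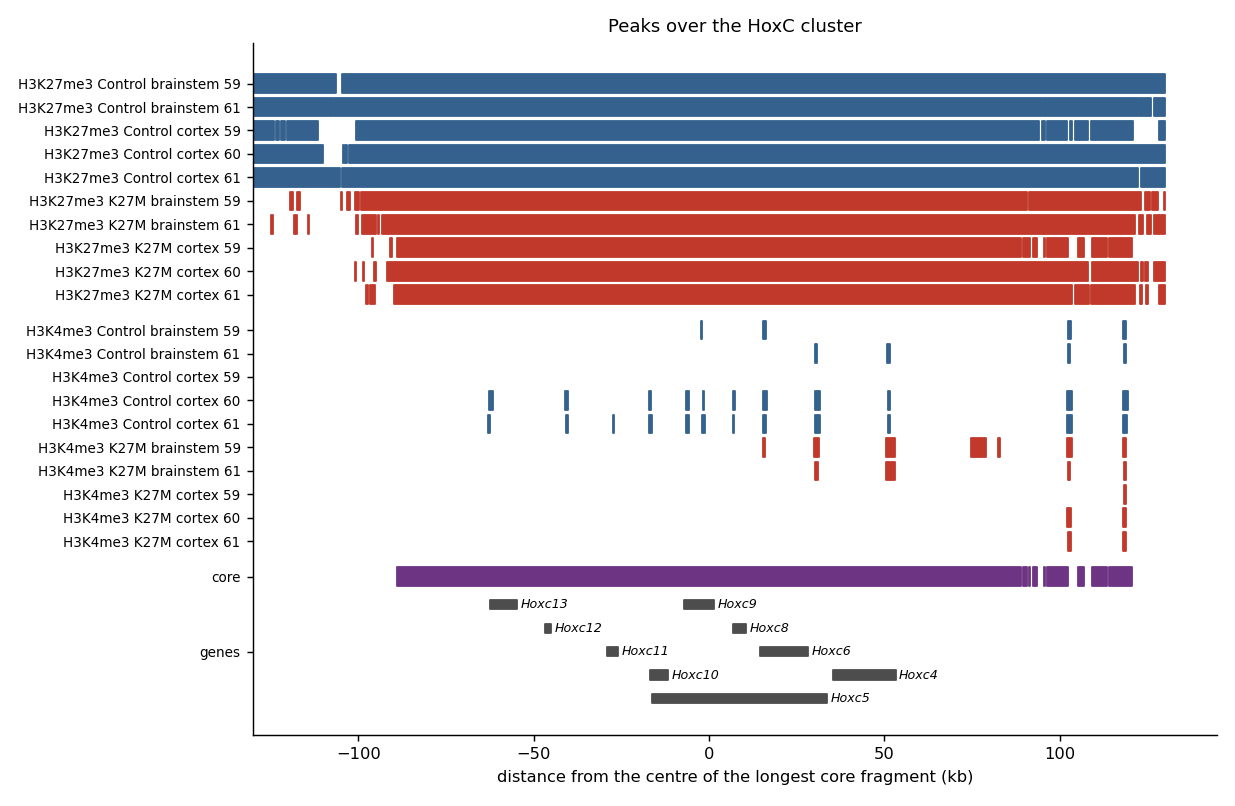
Peaks of each library over the longest core fragment, as bars against the distance from its centre (kb), with K27M in red, Control in blue, core fragments in purple and protein-coding genes in grey. H3K27me3 spans the cluster in all 10 libraries, whereas H3K4me3 peaks at the starts of *Hoxc13*, *Hoxc10*, *Hoxc9* and *Hoxc8* appear in the Control cortex 60 and 61 libraries and no other.

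Ranked by mean log2 fold enrichment over the 5 K27M libraries, the strongest fragment was again that of *Hand2*, with 29.5 and 37.0 in K27M brainstem, 11.7, 27.7 and 32.6 in K27M cortex, and 8.03, 9.64, 6.40, 18.2 and 10.9 in the matched Controls. It was followed by the fragments of *Tbx15*, a T-box gene of skeletal development, of *Dlx5* and *Dlx6*, forebrain interneuron regulators, and of *Hmx2* and *Hmx3*, inner ear homeobox genes. The fragments of *Tfap2a*, *Tbx20*, the *HoxD* cluster, *Lhx1* and *Foxa2* were also among the 10 strongest, which were chosen on these values. All 10 exceeded the matched Control in 5 of 5 pairs, against 642 of 2703 (23.8%) among all members with a peak in all 10 libraries. A ranking by the K27M values makes this outcome likely, so it is a description without a test.

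Fragments that reached a promoter, taken as 2000 bp upstream to 1000 bp downstream of a transcript start, made up most core sequence. Each fragment counts here with its whole length, and the share of core bases inside promoters was not measured. Of the 2922 fragments, 1464 (50.1%) overlapped a promoter of any gene and made up 72.9% of core bases, 185 (6.33%) an exon only, 499 (17.1%) an intron only, and 774 (26.5%) lay between genes. Control-only fragments, those marked in at least 2 Controls and in no K27M library, numbered 45904 and overlapped a promoter in 21.1% of cases. A group of 849 core members (29.1%) lay at least 10 kb from any annotated start. Their median fold enrichment was 4.24 and 5.51 in K27M brainstem and 2.77, 4.34 and 4.22 in K27M cortex, lower in each K27M library than that of promoter members, which was 6.67, 7.99, 2.97, 7.28 and 7.58. In Control it was 4.53, 4.60, 3.22, 5.63 and 4.53 at distant members and 5.72, 5.04, 2.69, 8.25 and 5.90 at promoter members, so the order was the opposite in Control cortex 59.

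Core sequence was richer in CpG than the H3K27me3 that was found in Control alone. It held 2.43 CpGs per 100 bp over all bases, against 1.10 in control-only fragments and 0.851 over the autosomes, and its GC content was 49.0% against 44.9% and 41.9%. The median member had 1.73 CpGs per 100 bp (quartiles 0.927 and 3.43) and the median control-only fragment 0.907. Among fragments marked in at least 2 Controls, the pooled density was 1.10, 1.32, 1.40, 1.57, 2.06 and 2.43 CpGs per 100 bp for those covered in 0, 1, 2, 3, 4 and 5 K27M libraries, an unbroken rise. CpG-rich sequence was nevertheless a feature of the promoter members, with a median of 3.19 CpGs per 100 bp, while the 849 distant members had 0.968, close to the control-only value. The *Fignl2* and CpG-poor sequences printed above are the highest and lowest among members of at least 1000 bp, with 13.3 and 0.0859 CpGs per 100 bp over their whole fragments.

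Protein-coding genes with core sequence in a promoter numbered 1274 of 20807 (6.12%), and of the 7407 genes with a promoter H3K27me3 peak in at least 1 Control they were 17.2%. These shares are the background for each gene group that follows. Because the groups were chosen with earlier results of these data known, their counts are descriptions.

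Regulators of body plan and tissue identity were held in the core at shares above these. Of the *Hox* genes 37 of 39 had a core promoter. All 12 LIM homeobox genes, which specify neuron classes, and all 5 *Gata* genes, regulators of blood and endoderm, were members, as were 74 of 91 other patterning homeobox genes, 11 of 14 T-box genes, 7 of 9 *Pax* genes, 21 of 33 bHLH genes and 22 of 41 Forkhead genes. *Lhx1* had a promoter H3K27me3 fold enrichment of 27 and 34.9 in K27M brainstem and 10.5, 28.7 and 32.6 in K27M cortex, against 9.70, 9.69, 4.64, 18.6 and 11.1 in the matched Controls. It was higher in K27M in every pair, as was *Pax2*, a regulator of midbrain and kidney development, with 21.7, 21.9, 9.44, 21.2 and 28.5 in K27M and 8.55, 7.95, 3.97, 13.6 and 7.91 in Control. The bHLH members included the proneural genes *Neurog1*, *Neurog2*, *Neurog3* and *Atoh1*.

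Some regulator families were mostly outside the core, although their shares were also above the background. Only 2 of 6 Iroquois genes were members, *Irx4* with 3000 bp and *Irx6* with 595 bp of core, and *Irx1*, *Irx2*, *Irx3* and *Irx5* had H3K27me3 peaks in 3 K27M and 3 Control libraries. Of 7 *Zic* and *Gli* genes, *Gli1*, *Gli2* and *Gli3*, the transcription factors of the Hedgehog pathway, were members, and *Zic1*, *Zic2*, *Zic4* and *Zic5* had peaks in 3 K27M libraries. Of 18 *Sox* genes 4 were members, with *Sox17* and *Sox18* of endothelium and endoderm and *Sox14* leading by core length. *Sox2*, *Sox4*, *Sox6*, *Sox8*, *Sox10* and *Sox11*, several of them OPC regulators, had no H3K27me3 peak in any library.

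Among secreted signals, 15 of 19 Wnt ligands had a core promoter, as did 11 of 29 BMP and TGF-beta ligands, 7 of 20 FGF ligands and 2 of 3 Hedgehog ligands. Of 10 Frizzled genes, which encode Wnt receptors, 2 were members, *Fzd2* and *Fzd6*. *Wnt3* had a fold enrichment of 11 and 10.5 in K27M brainstem, 4.87, 12.7 and 16.6 in K27M cortex, and 8.04, 5.37, 3.35, 13.2 and 8.49 in Control, so 4 of its 5 pairs were higher in K27M and cortex 60 was not. *Shh*, the Hedgehog ligand that patterns the ventral neural tube, had 18.1, 16.5, 4.96, 18.1 and 14.7 in K27M and 2.54, 6.90, 2.03, 12.3 and 8.05 in Control, higher in every pair. *Bmp4* and *Tgfb1* each had 3000 bp of core.

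Of 7 cyclin-dependent kinase inhibitor genes, 2 were members. *Cdkn2a*, which encodes the tumor suppressors p16Ink4a and p19Arf, had a promoter H3K27me3 fold enrichment of 18.8 and 22.2 in K27M brainstem 59 and 61 and 7.90, 15.7 and 18.5 in K27M cortex 59, 60 and 61. In Control, a peak was listed in brainstem 61 (5.49), cortex 59 (3.59) and cortex 60 (8.81), and none in brainstem 59 and cortex 61. The K27M values were above each matched Control value that could be compared, and *Cdkn2a* also had a promoter H3K4me3 peak in all 10 libraries. *Cdkn1c*, the other member and an imprinted growth inhibitor, had 8.01, 12, 2.97, 11.3 and 13.6 in K27M and 5.58, 5.48, 1.91, 6.33 and 3.84 in Control, higher in all 5 pairs. Of 11 PRC2 genes only *Epop*, an accessory subunit, was a member, with 693 bp of core and a fold enrichment above Control in 5 of 5 pairs.

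Genes outside development were represented to differing degrees. Potassium channel genes, which set excitability, were members in 24 of 92 cases and collagen genes in 8 of 42. None of 57 clustered protocadherin, 1087 olfactory receptor and 72 ribosomal protein genes had a core promoter, although 15, 505 and 8 of them had an H3K27me3 peak in at least 1 Control.

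**Figure D4:**
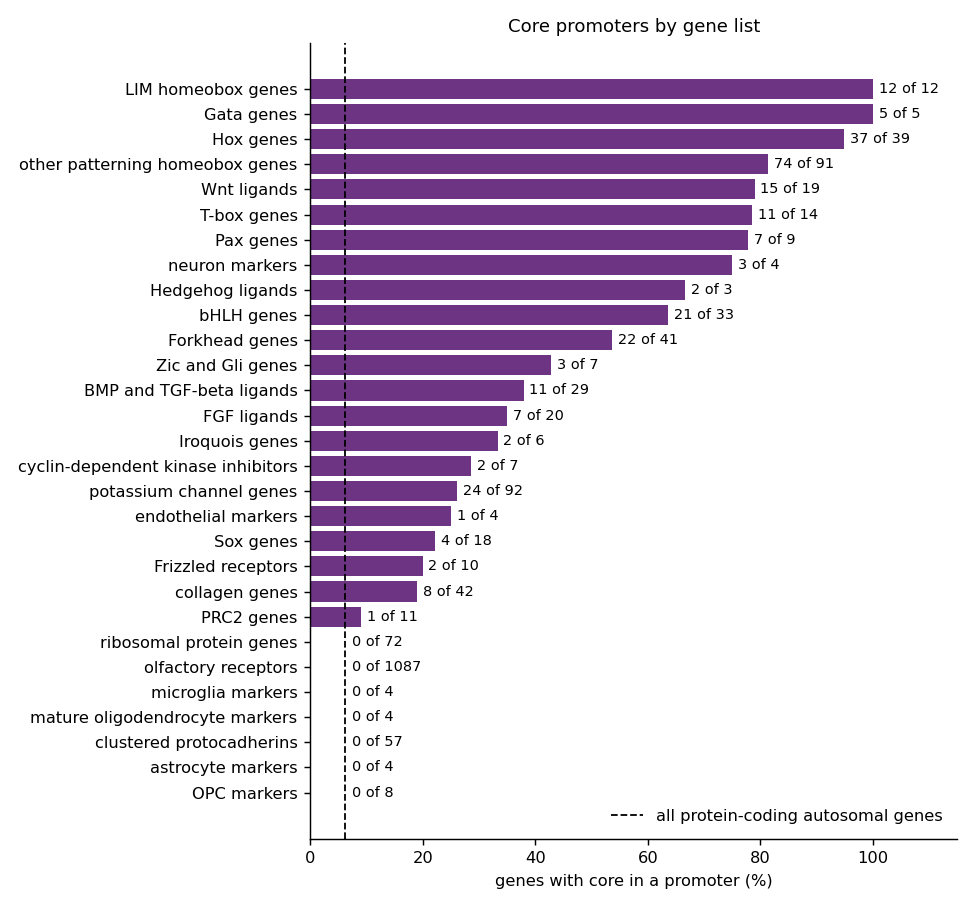
Share of the genes of each list with core sequence in a promoter (%), with the number of members beside each bar; the dashed line marks all protein-coding autosomal genes (6.12%). LIM homeobox, *Gata* and *Hox* genes reach 94.9% or more, and 7 lists have no member.

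The OPC label was checked on promoter marks of cell type markers. All 8 OPC markers had an H3K4me3 peak in 10 of 10 libraries and none was a core gene. *Nkx2-2* was the only one of them with any H3K27me3 peak, in 3 K27M and 2 Control libraries. Over all protein-coding autosomal genes, 59.1% had promoter H3K4me3 in all 10 libraries and 6.12% had a core promoter. Neither trait is therefore particular to OPC markers. *Pdgfra* had an H3K4me3 fold enrichment of 28.7 and 16.8 in K27M brainstem, 15.3, 38 and 40.6 in K27M cortex, 23.2 and 16.2 in Control brainstem, and 6.15, 100 and 65.9 in Control cortex. None of the mature oligodendrocyte, astrocyte and microglia markers (4 of each) had core sequence. *Mog*, *Mag*, *Mobp* and *Opalin* had no H3K4me3 peak in any library. Of 4 neuronal markers, *Gad2* (3000 bp of core), *Slc17a7* (3000 bp) and *Rbfox3* (2288 bp) were members, and of 4 endothelial markers *Cldn5* (1247 bp) was. H3K4me3 was also found at markers of other cells. Among the astrocyte markers, *Slc1a3* and *Gja1* had a promoter H3K4me3 peak in 10 of 10 libraries and *Gfap* and *Aldh1l1* in 6. Of the microglia markers, *P2ry12* had one in 8 libraries and *Cx3cr1*, *Aif1* and *Tmem119* in none. Of the endothelial markers, *Kdr* had one in 10 libraries, *Cldn5* in 5, and *Pecam1* and *Cdh5* in none. The neuronal markers *Snap25*, *Gad2* and *Rbfox3* had one in 10 libraries and *Slc17a7* in 9. The part of other cells in the core was not tested.

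Fold enrichment at core promoters was compared within pairs, gene list by gene list. It ranks promoters within a library, and the members were kept for having K27M peaks, so the counts are descriptions without a test. Among the 1226 core genes with a promoter peak in all 10 libraries, 528 (43.1%) had a higher fold enrichment in K27M in 5 of 5 pairs and 36 (2.94%) a lower one in 5 of 5. Among such members, 33 of 36 *Hox*, 65 of 70 other homeobox, 20 of 22 Forkhead, 10 of 11 T-box, 10 of 12 LIM homeobox, 6 of 7 *Pax*, 15 of 21 bHLH, 3 of 4 *Sox* and 5 of 5 *Gata* genes were higher in every pair, as were 1 of 2 Iroquois and 1 of 3 *Zic* and *Gli* genes. *Hox* genes of a cluster mostly lie under 1 peak and share its value. Of the signals, 9 of 15 Wnt, 5 of 11 BMP and TGF-beta, 3 of 7 FGF and 2 of 2 Hedgehog ligands were higher in every pair, and 0 of 2 Frizzled genes. The same was so of 9 of 24 potassium channel genes, 2 of 8 collagen genes and none of the 3 neuronal markers. The FGF (42.9%) and BMP and TGF-beta (45.5%) lists lay near the share over all core genes. Lists below it were *Zic* and *Gli*, Frizzled, potassium channel (37.5%), collagen, neuronal and endothelial. Of these, *Zic* and *Gli*, Frizzled and neuronal rest on 2 or 3 genes each and endothelial on 1. *Gad2*, for GABA synthesis, had 12.8, 19.0, 5.95, 12.1 and 15.4 in K27M against 6.07, 5.29, 3.80, 12.7 and 6.60 in Control, with cortex 60 as the exception. No gene of any of these lists was lower in K27M in all 5 pairs.

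H3K4me3 was not used to choose the members and was compared next. Core fragments overlapped an H3K4me3 peak in 39.7% and 31.7% of cases in K27M brainstem 59 and 61 and in 25.7%, 39.3% and 40.4% in K27M cortex 59, 60 and 61. The matched Control shares were 38.9%, 36.0%, 19.7%, 46.4% and 47.1%. Control-only fragments overlapped an H3K4me3 peak in 4.14% to 7.98% of cases. All 10 libraries thus had a higher H3K4me3 share on the core, and the difference, averaged within a culture, was 30.2 percentage points ± 7.43 (SD, n = 5), in 5 of 5 cultures (exact sign-flip permutation test, p = 0.0625). Core members were longer, so the comparison was repeated on fragments of 1000 to 2000 bp in both sets, where it was 29.3 points ± 6.22 (SD, n = 5), and on promoter fragments, where it was 42.6 points ± 11.3 (SD, n = 5). Taken as the share of base pairs under an H3K4me3 peak in place of the share of fragments, the difference was 7.93 points ± 4.04 (SD, n = 5), in 5 of 5 cultures.

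**Figure D5:**
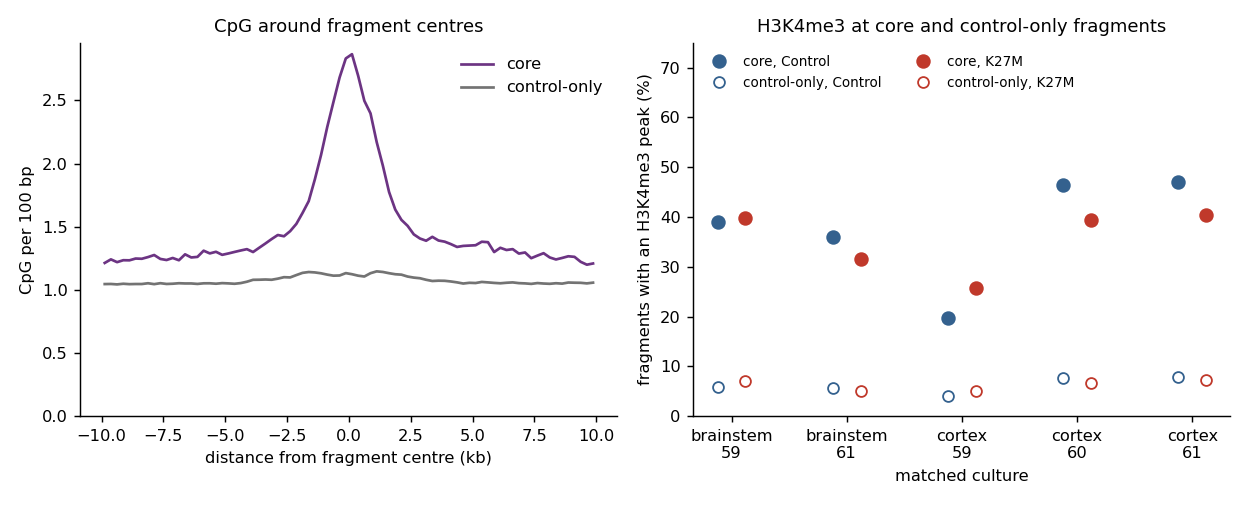
Left, mean CpGs per 100 bp against distance from the centre of core (purple) and control-only (grey) fragments (kb); right, share of core (filled) and control-only (open) fragments with an H3K4me3 peak in each library (%), K27M in red and Control in blue. CpG rises towards the centre of core fragments and hardly in control-only fragments, and every core share (19.7% to 47.1%) lies above every control-only share (4.14% to 7.98%).

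Between genotypes, the H3K4me3 share over all core fragments did not separate. K27M minus Control was 0.787 and −4.31 percentage points in brainstem 59 and 61 and 5.95, −7.05 and −6.74 points in cortex 59, 60 and 61, a mean of −2.27 ± 5.57 (SD, n = 5) with 3 of 5 pairs lower in K27M (exact sign-flip permutation test, p = 0.438). Without cortex 60 and 61 together the mean was 0.758 points ± 4.87 (SD, n = 3), with the sign turned. By gene list, the other homeobox, LIM homeobox, bHLH and T-box members had fewer H3K4me3 promoters in K27M in every pair. Of 74 other homeobox genes it was 40, 29, 22, 46 and 45 in K27M against 58, 46, 23, 67 and 70 in Control. Over all 1274 core genes cortex 59 went the other way, with 771 in K27M against 663. These lists were picked after their values were seen, and the difference was not tested. No gene with a core promoter had promoter H3K4me3 in all 5 K27M and no Control library or the reverse. Among all 20807 genes, 2 showed the first pattern (0.00961%), *Clrn1* and *Prm2*, which are not members, and 0 the second (0%). The paper took *Prm1* out of its K27M signature as an artifact, because the Cre construct carries the *Prm1* promoter. Whether reads from that construct play a part at *Prm2* was not tested.

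Members ranged from those with H3K4me3 in every library to those with none. Of 2922 fragments, 1462 (50.0%) met no H3K4me3 peak in any library, 526 (18%) met one in all 10, and the other 934 (32%) met one in 1 to 9 libraries. Members without H3K4me3 had a median length of 999 bp and 0.961 CpGs per 100 bp, against 2280 bp and 3.69 in those marked in all 10. At core promoter fragments, 36.0% to 81.6% carried H3K4me3 in a library, against 16.3% to 27.1% of control-only promoter fragments, and away from promoters the core share was 3.36% to 12.5%. Of the 1274 genes with a core promoter, 641 (50.3%) had an H3K4me3 peak in all 10 libraries and 62 (4.87%) in none. Over all 20807 protein-coding autosomal genes, 12294 (59.1%) had one in all 10 and 6698 (32.2%) in none. A peak in all 10 was found at 7 of 15 Wnt, 7 of 11 BMP and TGF-beta and 4 of 7 FGF ligands and at 14 of 24 potassium channel genes, on both sides of the share over all core genes. Among regulators it was found at 3 of 3 *Gli*, 1 of 2 Iroquois, 5 of 12 LIM homeobox, 6 of 21 bHLH, 18 of 74 other homeobox, 5 of 22 Forkhead, 1 of 7 *Pax* and 1 of 11 T-box genes, at 0 of 5 *Gata* and 0 of 4 *Sox* genes, and at 1 of 37 *Hox* genes, *Hoxa7*. Differences between lists were not tested.

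H3K4me3 at the *Hox* members differed between libraries. Of the 37 *Hox* genes in the core, 20 and 17 had a promoter H3K4me3 peak in K27M brainstem 59 and 61, 14 and 18 in Control brainstem, 1, 4 and 5 in K27M cortex 59, 60 and 61, and 1, 27 and 27 in Control cortex. All 4 brainstem libraries lay between 14 and 20, whereas the cortex libraries spread from 1 to 27. Other lists also had a wide spread over the 10 libraries, with 0 to 5 of the 5 *Gata*, 1 to 7 of the 7 *Pax* and 1 to 11 of the 11 T-box genes, and over all 1274 core genes the number was 663 to 1186. Part of this spread lay between genotypes. T-box counts were 5, 5, 1, 6 and 7 in K27M and 10, 7, 2, 11 and 11 in the matched Controls, lower in every pair. *Pax* counts were 4, 1, 1, 4 and 5 against 6, 4, 1, 7 and 7, equal in cortex 59 only. *Gata* counts were equal in both brainstem pairs and lower in K27M in the cortex pairs. *Hoxb2*, a hindbrain segment gene with 649 bp of core, had H3K4me3 in all 4 brainstem libraries, with a fold enrichment of 24.9 and 9.04 in K27M and 6.25 and 15.0 in Control, and in none of the 6 cortex libraries. It was the only gene with this pattern among all 20807 (0.00481%), and 0 genes had the reverse (0%). By position in the clusters, a promoter H3K4me3 peak in at least 1 brainstem library was found at 19 of the 21 core genes of paralog groups 1 to 8, all but *Hoxb1* and *Hoxc8*, and at 2 of the 16 of groups 9 to 13, *Hoxa13* and *Hoxd9*. All 4 brainstem libraries had one at 10 of the 21, such as *Hoxa3*, *Hoxb3* and *Hoxd3*, and at 0 of the 16. This grouping was made after the values were seen, and neighbouring promoters, which overlap at several shared starts, can hold the same peak.

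A set of members carried H3K4me3 in the Control cortex 60 and 61 libraries and nowhere else. It comprised 84 fragments and 59 core genes, including *Gata4*, *Sox17*, *Foxa2*, *Foxb1* and *Hoxc9*. *Gata4* had an H3K4me3 fold enrichment of 13 and 8.73 there and no peak in the other 8 libraries, and *Sox17* had 5.93 and 4.48. Fragments with H3K4me3 in a single library numbered 36 in Control cortex 61, 29 in Control cortex 60 and at most 13 in any other. These libraries had the highest median H3K4me3 fold enrichment at core fragments, 38 and 27 against 2.51 to 14.3 in the others. The study's library summary gives them the largest shares of duplicate reads among the H3K4me3 libraries. The part of library quality in these peaks was not tested.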

How the data were processed

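H3K27me3 and H3K4me3 peak lists of 20 libraries entered, with groups taken from the labels. According to the submitters' processing notes and the methods, the authors trimmed reads with Trim Galore 0.6.7, aligned them to mm10 with BWA 0.7.17-r1188 and called peaks with MACS2 2.2.7.1 per library with the matching input as background, in broad mode for H3K27me3 and narrow mode for H3K4me3. Calls were made without pooling and without the spike-in. Each row of the deposited lists holds the fold enrichment of a peak (a ratio to input), p-value and q-value as −log10, and a score that played no part here. Depth is not in these files, read counts did not enter, and signal under the caller's threshold was not measured. Weak enrichment over background shortens a list and its peaks.

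Intervals were merged within each library, and overlaps (at least 1 bp), covered bases and CpGs were derived with pandas 2.3.3 and numpy 2.4.6 under Python 3.11.15, after the functions had been tested on simulated data. Only the 19 autosomes entered. Gene models were those of GENCODE M21 for GRCm38 (the study used M25), and sequence was that of RefSeq. A fragment or promoter takes the fold enrichment of the strongest peak that overlaps it.

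The 5 matched pairs were tested by exact permutation of the signs of their differences, two-sided, over 32 arrangements, since the study treats the cultures as matched. To check the pairing, deviations of H3K4me3 presence at core fragments correlated between same-numbered K27M and Control libraries with r = 0.143 in the brainstem and 0.609, 0.378 and 0.430 in cortex 59, 60 and 61, across fragments, which are not independent. The p-values take the 5 cultures as independent. Numbers 59 and 61 occur in both regions, and the sample titles do not say whether those cultures came from the same litters. If they did, fewer than 5 independent preparations stand behind each p-value.

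Genes were named by these rules: those with a start in the 10 longest fragments, the 3 members of each gene list with the most core sequence, genes with H3K4me3 in 1 region only, and cell type markers. Others are named as members of a count or after their values were seen, and some genes are not reported here. The members, gene lists and tests were chosen with earlier results of these data known. Other settings tried were stricter peak thresholds (−log10 q of at least 3, fold enrichment of at least 3, or −log10 q of at least 10 for H3K4me3), fragments of at least 1000 bp, other shares of libraries, promoter windows and overlaps, covered bases, no pairs, and each culture left out. The held-out fold enrichment ratio, the fragments of 1000 to 2000 bp, the promoter fragments and the omission of cortex 60 and 61 together were added after the data were seen.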

Additional observations from a re-analysis of the deposited data

Results flagged for a closer look

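Of 26 groups of 5 values screened for a single library far from the others (a gap of over 0.71 of the range, which chance gives in about 1 group of 20), 6 were flagged, all in cortex culture 59. In the cortex 59 K27M library the core made up 84.6% of H3K27me3-covered bases, against at most 54.6% in the other K27M libraries, and the 90th percentile of fold enrichment at core fragments was 5.95, against at least 17.6. When held out, this library covered 76.1% of the core rebuilt from the other cultures, against at least 95.9% elsewhere, and 2.45% of the remaining H3K27me3, against at least 15.4%. The cortex 59 Control library covered 84.4% of that rebuilt core, against at least 95.7% elsewhere, and 72.2% of its 1000 strongest peaks touched the core, against at least 89.3%.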

How the results depend on the processing

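The core size depends on how strictly a peak is taken. With −log10 q of at least 3, fold enrichment of at least 3, or a length of at least 1000 bp, the members numbered 1791, 1071 and 1886 in place of 2922, and their median CpG density was 2.44, 2.27 and 2.19 per 100 bp in place of 1.73. With fold enrichment of at least 3 the core spanned 8.29 Mb and 668 genes in place of 10.5 Mb and 1274 genes. With 4 of 5 K27M libraries sufficing, it spanned 14.7 Mb at 1.60 CpGs per 100 bp. Leaving out each culture gave 2948 to 3977 fragments, 10.6 to 13.9 Mb, 1278 to 1757 genes, 1.61 to 1.74 CpGs per 100 bp, a held-out coverage difference of 70.1 to 82.1 points, a length ratio of −1.19 to −0.76 and a fold enrichment ratio of 0.07 to 0.33 (log2), and H3K4me3 differences of −3.48 to −1.05 points between genotypes and 27 to 33.6 points between core and control-only fragments. The upper end of the first 2 ranges and of genes, and the lowest fold enrichment ratio (0.07), came from leaving out cortex 59. Without the pairs (no replicate block), the held-out coverage difference of 80.3 points and the core minus control-only H3K4me3 difference of 30.2 points had p = 0.0167 in an exact permutation test in place of 0.0625, because more arrangements exist; this treats values of the same library as exchangeable, and the length ratio of −0.86 had p = 0.0833. The H3K4me3 difference between genotypes turned from −2.27 to 0.758 points without cortex 60 and 61 together, which leaves 3 pairs; the cause was not tested. With H3K27me3 fold enrichment of at least 3 it was −4.58 points and on fragments of 1000 to 2000 bp −0.342 points. The core minus control-only difference was 7.93 points as a share of base pairs, and the held-out fold enrichment ratio 0.40 and 0.58 (log2) under the stricter q and fold enrichment. No other alternative changed a direction. With 5 pairs no paired test can pass 0.05, and depth, which these lists do not give, limits what a missing peak means.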
